A study of Mus musculus with 16 samples.

Results

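Kidney tumors that were transplanted under the skin of immunodeficient mice (secondary tumors) were set beside mouse embryonic stem (ES) cells, to see which ES cell genes were still high in the transplants and which tissue genes the transplants held that ES cells lacked. The arrays were chosen by their labels: 3 secondary kidney tumors and the 1 ES cell culture, 4 of the 16 arrays of the study. The tumors go back to reprogrammable mice, in which doxycycline switches on reprogramming factors. Doxycycline was given for 7 days to mice aged 4 weeks, and the primary kidney tumors were collected once it had been off for another 7 days. Secondary tumors were such kidney tumors grown again in the subcutaneous tissue of immunodeficient hosts; how long they grew, whether the 3 came from separate primary tumors, and the host strain are not given in the labels.

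The secondary tumors (3 arrays) and the primary kidney tumors (3 arrays) had a 129xC57BL6 F1 background or a mixed one of the same strains, and because the mice were chimeras, tumors could also hold ICR cells. Normal kidney and normal liver (3 arrays each, kidney of the same age as the tumors) came from mice made with the same ES cell line. The ES cells (1 array) were 129xC57BL6 F1. The transplants could further hold cells of the host mouse, and in bulk tissue fewer cells of a type and less RNA per cell cannot be told apart. Nothing in the labels ties the replicates to separate animals, so the spread behind a p-value is that of these arrays and may be partly technical.

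ES cells keep the ability to form all tissues of the body through a small circuit of transcription factors around Oct4 (Pou5f1), Sox2 and Nanog, supported in mouse ES cells by Esrrb, Tfcp2l1 and the Klf factors. When they leave that state, the circuit is switched off and lineage programs are switched on. Pluripotent cells placed under the skin typically form teratomas, mixed growths of neural, epithelial and mesenchymal tissue.

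Values are log2 of the deposited array intensities, and a difference is a secondary tumor value minus the ES cell value. With 1 ES cell array there is no test between the groups. A gene was counted as higher or lower where each of the 3 tumor arrays lay at least 1 log2 unit above or below the ES cell array. Of 19938 genes, 1909 were higher in the secondary tumors by that rule, which is 9.57% of all genes, and 1347 were lower, which is 6.76%. The higher share of these calls was 58.6%, and 43.0% when each array was centred on its own median. The median difference of all genes was -0.13, and -0.33 after that centring. Across genes, which are not independent replicates, the mean of the secondary tumors and the ES cell values had a Pearson correlation of 0.882.

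3 features of single arrays bear on what follows. Secondary tumor 1 stood apart from secondary tumors 2 and 3 in muscle and fat genes, described below. Xist, the RNA of the silenced X chromosome, read 6.01 to 6.31 in the secondary tumors, against 10.84 and 10.19 in primary kidney tumors 2 and 3, 5.60 in primary tumor 1 and 7.84 in ES cells. The ES cell array also carried signal for fibroblast and matrix genes. The summed intensity of 19 such genes was 44802 to 64447 in the secondary tumors and 29944 in ES cells. It was 10961 to 14454 in normal kidney and 27064 to 36004 in normal liver, so the ES cell sum lay within the range of normal liver. Postn, a matrix protein of fibroblasts chosen here after its values were seen, read 11.97, 12.04 and 11.80 in the secondary tumors, against 10.47 in ES cells and 7.54, 9.22 and 7.65 in normal kidney. The part of other cells in the ES cell values was not tested.

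The circuit of pluripotency factors was lower in the transplants, with 3 members as exceptions. Of 19 core factors, 16 were lower than in ES cells, 0 were higher and 3 were neither, with a median difference of -2.33. Pou5f1, the Oct4 gene, read 8.25, 9.19 and 8.94 in the secondary tumors, against 12.33 in ES cells. All 3 tumors thus lay more than 3 log2 units below ES cells, an 11.6-fold difference by the mean of the log2 values. The secondary tumors still lay above normal kidney, which read 6.45, 6.47 and 6.69 (log2 difference 2.26 ± 0.42, SE, adjusted p = 4.39e-04, limma, n = 3 each). A probe cannot separate the endogenous gene from a reprogramming transgene that holds the same sequence, here or for any other factor named below.

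Nanog, the homeobox factor of the pluripotent state, read 9.04, 10.08 and 9.49 in the secondary tumors, against 12.93 in ES cells. By the mean of the log2 values it was 10.5-fold lower than in ES cells. Nr0b1, a nuclear receptor of the mouse ES cell circuit, read 6.11, 7.86 and 6.57 in the tumors, against 12.11 in ES cells, a difference of -5.27. In normal kidney it read 5.93 to 6.14, so secondary tumor 1 lay within that range and secondary tumor 2 did not. Esrrb, an orphan nuclear receptor that sustains mouse ES cell self-renewal, read 6.44, 7.51 and 6.84, against 11.33 in ES cells. Utf1, a chromatin factor of undifferentiated cells, read 8.06, 9.39 and 8.73, against 12.68 in ES cells. In Nanog, Nr0b1, Esrrb and Utf1 secondary tumor 2 read highest and secondary tumor 1 lowest.

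The other factors of the naive circuit were also low. Tfcp2l1 read 7.71, 8.32 and 7.74 in the tumors, against 11.35 in ES cells. That gene is also a collecting duct factor, and normal kidney read 11.41 to 11.74. Nr5a2, Zfp296, Prdm14, Klf2 and Zfp42 had mean differences of -3.11, -3.84, -2.72, -2.33 and -2.32. Sall4, a zinc finger factor shared with fetal tissue, read 9.82, 9.66 and 9.71, against 11.53 in ES cells. Klf4 read 9.35, 8.67 and 8.35, against 10.65 in ES cells. Mycn, Gbx2 and Tbx3 differed by -1.68, -1.51 and -1.23.

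The 3 factors that were not lower were Sox2, Myc and Klf5. Sox2, which is also a factor of neural progenitors and of airway and esophageal epithelium, read 11.71, 11.73 and 11.84 in the secondary tumors, against 11.92 in ES cells and 6.05 to 6.67 in normal kidney. Its tumor values spanned a narrow range just under the ES cell value. Myc, a growth factor-responsive regulator, read 9.96, 9.98 and 9.88, against 10.06 in ES cells. Klf5, a factor of stem cells and of basal epithelium, read 10.59, 10.39 and 10.23, against 11.03 in ES cells.

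**Figure D1:**
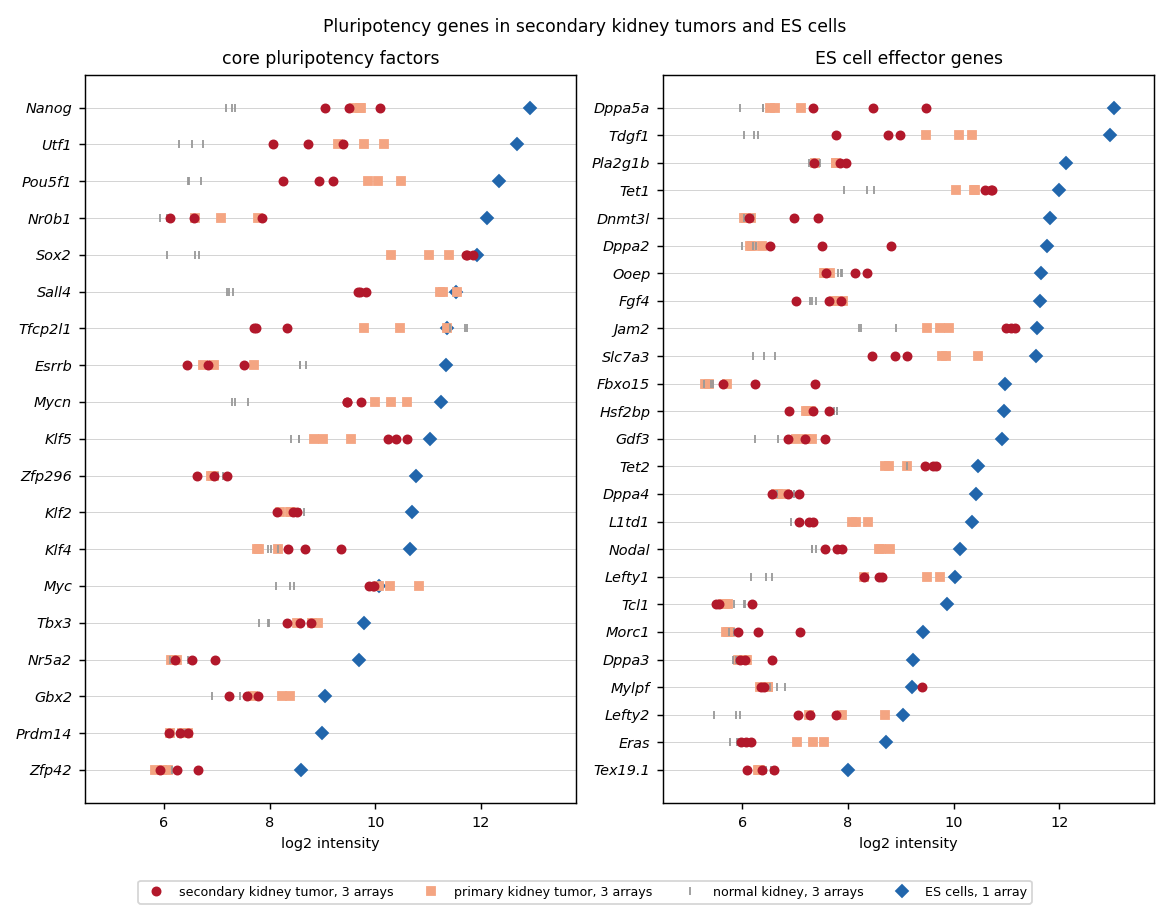
Log2 intensity of 19 core pluripotency factors and 25 ES cell effector genes (vertical axis, ordered by the ES cell level) in 3 secondary kidney tumors, 3 primary kidney tumors, 3 normal kidneys and 1 ES cell culture, 1 point per array. The secondary tumors lay at or near the ES cell diamond for Sox2, Myc, Klf5 and Jam2 and well to its left for most others.

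Genes that act downstream of the circuit were lower as well. Of 25 ES cell effector genes, 22 were lower than in ES cells and 0 higher, with a median difference of -3.11. Dppa5a, an RNA-binding protein of ES cells, read 7.34, 9.47 and 8.47 in the secondary tumors, against 13.03 in ES cells. Dppa2, a chromatin-binding protein of early embryos, read 6.52, 8.82 and 7.52, against 11.77. Fbxo15, an F-box protein and classic Oct4 target, read 5.64, 7.38 and 6.25, against 10.98. For each of the 3 the tumors spread over more than 1 log2 unit, and secondary tumor 2 was the highest.

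Dnmt3l, the cofactor of the de novo DNA methyltransferases, read 6.13, 7.43 and 6.98, against 11.83 in ES cells. Tdgf1, the Nodal co-receptor Cripto, read 7.77, 8.99 and 8.76, against 12.96 in ES cells. Fgf4, the growth factor that primes ES cells to differentiate, read 7.01, 7.87 and 7.65, against 11.64, and normal kidney read 7.29 to 7.39. Fgf4 in the transplants was therefore near the level of normal kidney, whereas Tdgf1 in all 3 tumors was above the 6.04 to 6.30 of normal kidney. Pla2g1b, Tcl1, Gdf3, Ooep, Hsf2bp and Dppa4 had differences from ES cells between -4.40 and -3.59. Slc7a3, L1td1, Dppa3 and Morc1 lay between -3.11 and -2.73, and Eras, Nodal, Lefty2, Tex19.1 and Lefty1 between -2.65 and -1.51.

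The effectors that were not lower were Jam2, Tet2 and Mylpf. Jam2, an adhesion protein also found in vessels, read 10.99, 11.09 and 11.17 in the tumors, against 11.57 in ES cells. Tet2, an enzyme that oxidizes 5-methylcytosine, read 9.62, 9.66 and 9.46, against 10.47. Tet1, of the same family, was lower, with 10.60, 10.70 and 10.73 in the tumors, a mean difference of -1.32. Mylpf, a fast muscle myosin light chain, read 9.40 in secondary tumor 1 and 6.42 and 6.35 in the others, against 9.21 in ES cells, and so separated the tumors from each other more than from ES cells.

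One promoter is shown for this circuit because it holds the octamer bound by Oct4 and its relatives. The octamer ATGCAAAT was searched on both strands in windows of 250 bases before to 50 bases after the first listed start of each gene (RefSeq, GRCm38.p6). It occurred in 2 of 14 core factors with a window (14.3%; Zfp42 and Zfp296), in 4 of 82 ES-restricted genes (4.88%; defined in the next paragraph) and in 1.75% of 27025 promoters. It was also found in 2 of 10 trophoblast genes (20.0%) and 2 of 11 neural progenitor genes (18.2%), so its share was not highest among the core factors. A match is only a match of letters. Zfp42, a zinc finger marker of the naive state also called Rex1, read 5.93, 6.65 and 6.24 in the secondary tumors, against 8.60 in ES cells. Its window on chr8:43306960-43307259, minus strand, is given with the octamer, in its reverse complement, in capitals.
Zfp42: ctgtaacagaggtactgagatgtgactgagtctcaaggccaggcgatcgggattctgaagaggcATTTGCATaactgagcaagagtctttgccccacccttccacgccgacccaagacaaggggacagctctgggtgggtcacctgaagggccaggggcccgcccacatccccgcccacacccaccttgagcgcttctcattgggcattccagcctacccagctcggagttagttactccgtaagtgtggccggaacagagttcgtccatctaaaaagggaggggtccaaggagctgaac

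A wider set was taken without using any tumor array. ES-restricted genes were those whose ES cell value lay at least 3 log2 units above every normal kidney and every normal liver array. There were 109, or 0.547% of genes. Just inside that threshold lay Mcf2 (3.00) and Fbln2 (3.01), and just outside it Tmsb10 (2.99) and Gpnmb (2.98). A gene was kept where every secondary tumor lay at most 1 log2 unit below ES cells, and lost where every secondary tumor lay at most 1 log2 unit above the mean of normal kidney. By these rules 14 genes were kept (12.8%), 33 were lost (30.3%) and 62 were in between. The median difference from ES cells was -2.73. Of the 109, 85 were lower than in ES cells and 1, Igf2, was higher. Because the genes were picked for a high ES cell value, lower values elsewhere are partly a matter of that choice, and the counts are a description.

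Several of the kept genes are genes of the early nervous system. Zic2, a zinc finger factor of the neural plate, read 9.98, 9.87 and 10.38 in the secondary tumors, against 10.23 in ES cells. Otx2, the homeobox factor of epiblast and forebrain, read 10.39, 10.18 and 10.44, against 10.10. Trh, the precursor of thyrotropin-releasing hormone, read 11.62, 11.59 and 11.94, against 11.22. All 3 genes, like Sox2, read 5.94 to 7.03 in normal kidney. Rimklb, an enzyme that joins glutamate to N-acetylaspartate, read 10.46, 10.67 and 10.83, against 10.52 in ES cells, and had the smallest difference of the 10 named kept genes, 0.13.

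Other kept genes belong to transport, metabolism and the cell surface. Slc38a1, a glutamine transporter, read 11.47, 11.42 and 11.45, against 11.05 in ES cells. Tmeff1, a membrane protein with an EGF-like domain, read 10.84, 11.01 and 11.13, against 10.61. Dctd (dCMP deaminase), Pcyt1b (an enzyme of phosphatidylcholine synthesis) and B3gnt5 (a glycosyltransferase of lacto-series glycolipids) differed from ES cells by -0.49, -0.52 and 0.46. Cldn6, a tight junction protein of embryonic epithelium, read 11.64, 11.00 and 11.14, against 11.92 in ES cells. Tnc, a matrix glycoprotein of developing tissue and fibroblasts, read 10.72, 10.98 and 11.07, against 11.57 in ES cells. Cldn6 and Tnc were added to the 10 named kept genes after their values were seen.

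Lost genes lay, by the rule, at most 1 log2 unit above the mean of normal kidney in all 3 transplants. With 0.5 log2 units as the distance, 14 genes were lost instead of 33. Pla2g1b, a secreted phospholipase, read 7.36, 7.96 and 7.85, against 12.13 in ES cells and 7.26 to 7.48 in normal kidney. Epp13 read 7.12, 7.89 and 7.29, against 11.93. Ooep, a protein of the oocyte and early embryo, read 7.58, 8.37 and 8.14, against 11.65. Hsf2bp, Arl14epl and Septin1 had differences of -3.66, -4.05 and -3.82. Upp1, uridine phosphorylase, read 8.80, 9.28 and 8.84, against 11.95 in ES cells.

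Not all ES-restricted genes are pluripotency genes. Grem1, a BMP antagonist of mesenchymal cells, read 7.09, 7.60 and 7.39, against 10.95 in ES cells. Loxl3, a collagen crosslinking enzyme, read 8.67, 8.49 and 8.32, against 11.03. The matrix and fibroblast genes Prrx1, Timp1, Lox, Mmp3, Fbln2, S100a4 and Thy1 were ES-restricted too (chosen here after their values were seen). Thy1 read 10.35, 9.77 and 9.10 in the secondary tumors, against 11.21 in ES cells, and Mmp3 read 7.89, 6.09 and 5.95, against 10.49. The part that such cells in the ES cell culture had in the 109 genes was not tested.

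**Figure D2:**
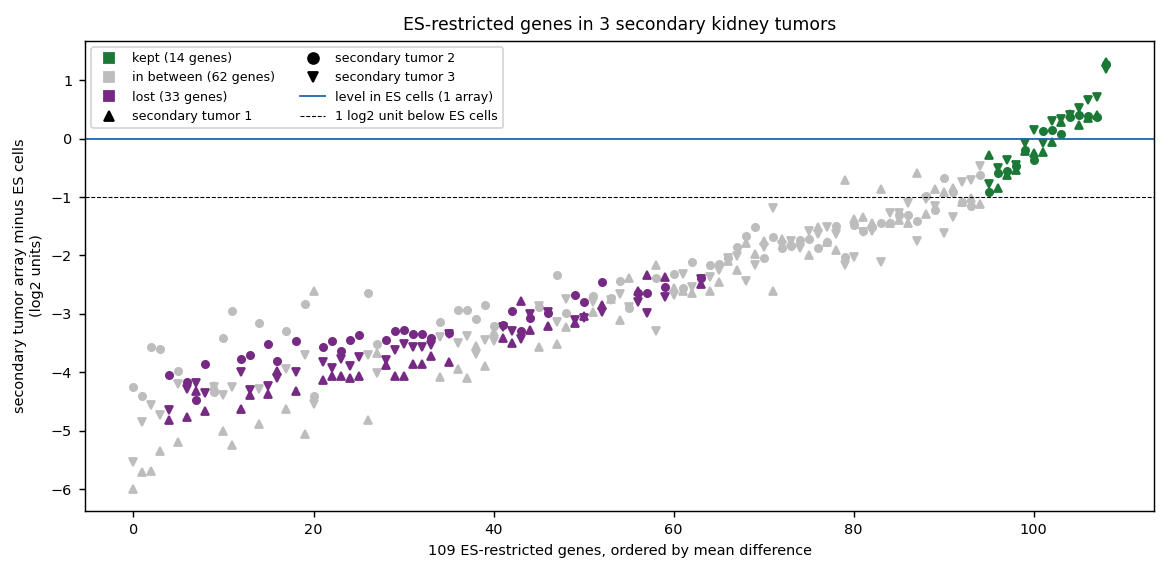
Difference from ES cells (log2 units, vertical axis) of the 109 ES-restricted genes in secondary tumors 1, 2 and 3, ordered by mean difference, with 14 kept, 62 in-between and 33 lost genes coloured. At the far left the 3 tumors fan out, with tumor 2 (circles) nearest to ES cells, and Igf2 stands above the ES cell line at the far right.

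The 3 transplants lay about equally far from ES cells over the 109 ES-restricted genes, with median differences of -2.65, -2.64 and -2.79 for secondary tumors 1, 2 and 3. Which tumor read highest was not evenly spread over these genes. Secondary tumor 2 was the highest of the 3 in 60 of the 109 ES-restricted genes, which is 55.0%, against 28.1% of all genes. By class, secondary tumor 2 was the highest in 26 of 33 lost and 33 of 62 in-between genes, but in 1 of 14 kept genes. In 10 of the 14 kept genes secondary tumor 3 was the highest. Over the ES cell lists the order was as follows. Secondary tumor 2 was the highest in 20 of 25 effector genes and in 12 of 19 core factors. Secondary tumor 1 was the highest in 22 of the 109 genes (20.2%), against 32.0% of all genes, and secondary tumor 3 in 27 (24.8%), against 39.9% of all genes. In 48 of the 109 (44.0%) tumor 2 was above tumor 3 and tumor 3 above tumor 1, an order found in 18% of all genes. With 1 array of each tumor, its own repeat error is not known.

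Set beside the primary tumors by limma, which called 18.5% of all genes higher in secondary tumors and 17.4% lower at an adjusted p under 0.05, the ES-restricted genes went both ways. Of the 109, 33 rose (30.3%), 24 fell (22.0%) and 52 did not pass the test, with a median of 0.08. Which direction held more genes depended on the setting: 16 rose and 24 fell without the dimmest 33.3% of genes, 23 and 24 with only the 2 groups in the fit, and 19 and 24 with the replicate block as well. Without primary tumors 2 and 3, the arrays with Xist signal, 21 rose and 13 fell, and without primary tumor 3 alone 15 fell. Leaving out both arrays leaves primary tumor 1 as the only array of its group, which is then assumed to vary like the arrays of the other groups. Of 25 effector genes 7 rose and 4 fell, and against primary tumor 1 alone 2 rose and 2 fell. Of 19 core factors 3 rose, 5 fell and 11 did not pass, and against primary tumor 1 alone 2 rose and 2 fell.

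Those that rose included Dppa5a, which read 6.63, 6.53 and 7.12 in the primary tumors, all below the lowest secondary tumor (log2 difference 1.67 ± 0.38, SE, adjusted p = 3.67e-03, limma, n = 3 each). Dppa2 rose by 1.39 ± 0.38 (adjusted p = 0.0124, limma) and Fbxo15 by 0.96 ± 0.31 (adjusted p = 0.0266, limma). Sox2 rose by 0.86 ± 0.24 (adjusted p = 0.0123, limma), and the primary tumors read 10.29, 11.02 and 11.39, none as high as the lowest secondary tumor.

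Other pluripotency genes fell. Pou5f1 read 10.05, 9.85 and 10.48 in the primary tumors, above every secondary tumor (log2 difference -1.33 ± 0.42, adjusted p = 0.0263, limma). Sall4 fell by 1.62 ± 0.15 on the log2 scale (adjusted p = 3.48e-06, limma), with 11.22 to 11.55 in primary tumors, close to the 11.53 of ES cells. Tdgf1 fell by 1.47 ± 0.34 (adjusted p = 4.22e-03, limma). Nanog differed by -0.13 ± 0.27 and did not pass (adjusted p = 0.726, limma). Of the kept genes 4 rose, 4 fell and 6 did not pass. Zic2, Trh and Otx2 fell by 0.72, 0.81 and 0.82 on the log2 scale (largest adjusted p = 0.0454, limma), and in all 3 genes every primary tumor lay above ES cells. Of the 17 genes that met the rule for kept in the primary tumors, 8 were also kept in the secondary tumors. Of the 48 that met the rule for lost there, 27 were also lost in the secondary tumors.

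Genes shared by stem cells and fetal tissue were mixed. Of 12 oncofetal genes 3 were higher than in ES cells and 2 lower, and 11 rose against normal kidney, where limma called 29.9% of all genes higher and 38.7% lower. Igf2, the fetal insulin-like growth factor, read 12.76, 12.73 and 12.64 in the secondary tumors, against 11.45 in ES cells and 7.48 to 7.75 in normal kidney. Dlk1, a Notch-like fetal membrane protein, read 11.65, 11.84 and 11.64, against 9.45 in ES cells, 4.80-fold by the mean of the log2 values. Gpc3, a fetal glypican, read 12.29, 12.05 and 11.88, against 10.79.

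Lin28a, which blocks let-7 maturation, read 9.09, 8.72 and 8.97 in the secondary tumors, against 10.60 in ES cells. Trim71, a stem cell RNA-binding protein, read 8.73, 8.61 and 8.54, against 10.46. The primary tumors read 10.68 to 11.17 for Lin28a and 10.39 to 10.60 for Trim71, and the secondary tumors differed by -1.99 ± 0.15 (adjusted p = 4.98e-07, limma) and -1.86 ± 0.13 (adjusted p = 1.44e-07, limma). Lin28b, Igf2bp1, Igf2bp3, Hmga2, Plag1, Peg10 and Afp were neither higher nor lower than ES cells, with differences between -1.08 and 0.99. In Afp, the fetal albumin of yolk sac and liver, the secondary tumors read 7.38, 6.49 and 6.50, against 6.23 in ES cells.

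Imprinted genes, expressed from 1 parental copy, were mostly higher. Of 18 measured, 11 were higher than in ES cells and 1 lower, with a median of 1.38. Nnat, a neuronal membrane protein, read 13.14, 13.25 and 13.34, against 8.79 in ES cells. Plagl1, a growth-restraining zinc finger factor, read 11.39, 11.56 and 10.99, against 8.56. Zim1 differed by 2.56. The 1 lower gene was Phlda2, a placental growth restrainer, which read 7.20, 7.36 and 7.50 in the secondary tumors, against 12.42 in ES cells, 10.53 to 11.13 in primary tumors and 10.80 to 10.96 in normal kidney. Phlda2 was thus lower in the transplants than in every other group given here, and fell against primary tumors by 3.53 ± 0.17 on the log2 scale (adjusted p = 9.18e-09, limma).

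Genes of dividing cells and of chromatin were lower too. Of 29 cell cycle genes 14 were lower than in ES cells and 0 higher (21 lower after centring on the array median). Against normal kidney 27 rose, where limma called 29.9% of all genes higher. Mybl2, a transcription factor of cycling cells, read 8.98, 9.09 and 8.83 in the secondary tumors, against 12.29 in ES cells. Ccne1 (cyclin E1) read 9.53, 9.47 and 9.58, against 12.14. Aurka, a mitotic kinase, differed by -1.67. Cdkn2a, an inhibitor of the cell cycle on the same list, was lower as well. Of 20 DNA methylation and Polycomb genes 10 were lower and 1 higher. Dnmt3b, a de novo DNA methyltransferase, read 8.72, 8.50 and 9.01, against 10.50 in ES cells, and Cbx7, the Polycomb protein of ES cells, read 8.86, 9.12 and 9.56, against 11.19. The 1 higher gene was Tet3, with 10.47, 10.07 and 10.26 in the tumors against 7.73 in ES cells.

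Some germ cell and trophoblast genes were lower. Of 15 germ cell genes 6 were lower, 0 higher and 9 neither, with a median of -0.43. Ddx4, an RNA helicase of germ cells, read 6.31, 6.55 and 6.80, against 9.54 in ES cells, and Sycp3, a meiotic chromosome protein, differed by -3.17. Of 12 trophoblast genes 3 were lower (Tfap2c, Ascl2 and Hand1), 0 higher and 9 neither, with a median of -0.09. The summed intensity of the 12 was 11107 to 11296 in the secondary tumors, against 9041 in ES cells. Their median level went the other way, with 7.05, 7.21 and 6.99 in the secondary tumors, against 8.42 in ES cells. Tfap2c, a trophoblast and germ cell factor, read 6.97, 7.14 and 6.85, against 10.94, the level of a lost gene. Of 18 glycolysis and hypoxia genes 9 were lower and 0 higher. The neuronal-type glucose transporter Slc2a3 read 11.54, 11.48 and 11.41, against 12.99 in ES cells, and Hk2 and Bnip3 differed by -1.64 and -1.60. Of 21 respiratory chain genes 1 was lower (4.76%, against 6.76% of all genes), Sdhd with -1.27.

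Most genes of the embryo just after the ES cell stage were neither higher nor lower. Of 15 epiblast and mesendoderm genes 3 were higher than in ES cells (20.0%, against 9.57% of all genes), 0 were lower and 12 were neither. Foxa2, the endoderm and floor plate factor, read 9.61, 9.43 and 9.42 in the secondary tumors, against 6.92 in ES cells. Cer1, a secreted Nodal antagonist, read 9.53, 9.10 and 9.86, against 6.79, and Fgf5, a primed epiblast growth factor, read 8.54, 8.20 and 8.63, against 7.09. Against the primary tumors 13 of the 15 fell and 0 rose (9 and 0 against primary tumor 1 alone). Over all genes 17.4% fell and 18.5% rose against primary tumors. Cer1 read 11.34 to 12.11 in primary tumors.

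**Figure D3:**
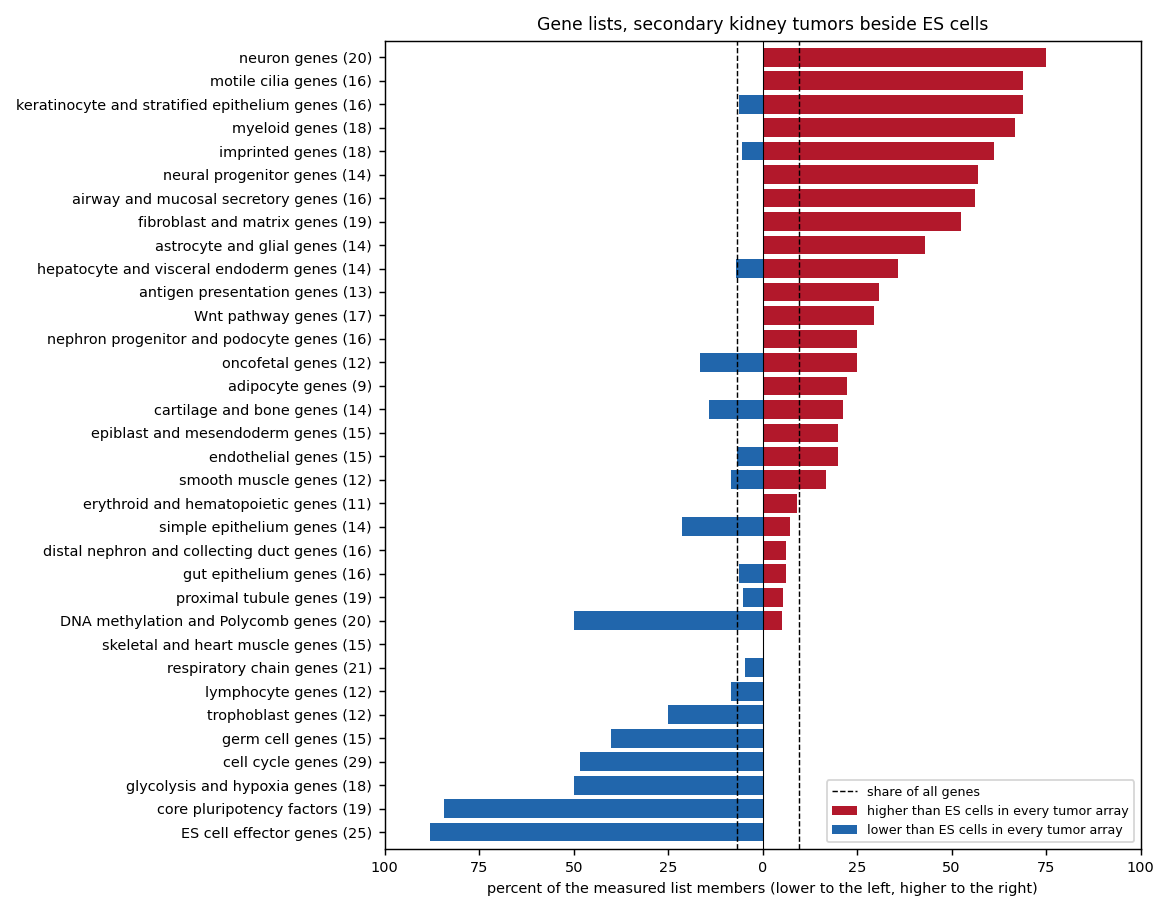
Percent of the measured members of 34 gene lists (member numbers in brackets) that were higher (right) or lower (left) in every secondary tumor array than in ES cells by at least 1 log2 unit, with the shares of all genes, 9.57% and 6.76%, as dashed lines. Neuron, motile cilia and keratinocyte lists reach furthest right, and effector and core pluripotency lists furthest left.

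Genes of the nervous system were among the tissue genes that read higher in the transplants than in ES cells. Of 20 neuron genes 15 were higher in the secondary tumors than in ES cells and 0 lower, with a median difference of 2.46. Dcx, a microtubule protein of migrating neurons, read 11.10, 11.27 and 11.50 in the secondary tumors, against 5.97 in ES cells. Syt1, the calcium sensor of synaptic vesicles, read 10.64, 11.01 and 11.17, against 6.32, and Snap25, a synaptic fusion protein, read 11.25, 12.06 and 11.56, against 7.36. Slc17a6, the vesicular glutamate transporter of excitatory neurons, read 9.48, 10.18 and 9.77, against 5.86. The lowest tumor value was more than 3 log2 units above ES cells in each of these 4 genes.

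Neuron genes also separated the transplants from the primary tumors. Of the 20, 17 rose against primary tumors and 0 fell (16 and 0 against primary tumor 1 alone), and 20 of 20 rose against normal kidney. Over all genes limma called 18.5% higher and 17.4% lower than primary tumors, and 29.9% higher and 38.7% lower than normal kidney. The same shares stand behind the list counts that follow. Syt1 read 6.66, 6.90 and 7.20 in primary tumors (log2 difference 4.02 ± 0.22, SE, adjusted p = 2.09e-08, limma, n = 3 each). Chl1, an adhesion molecule of axons, read 10.93, 11.13 and 10.89 in secondary tumors, against 6.12 to 7.03 in primary tumors and 5.74 in ES cells. The ES cell array was not devoid of neural signal: Stmn2, a growth cone protein, read 12.31, 12.73 and 12.72 in secondary tumors, against 12.17 in ES cells, and Neurod1 8.08, 8.40 and 8.52, against 8.56. Both were named after their values were seen, as members of the list that did not differ by the rule.

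Neural progenitor and glial genes were higher as well. Of 14 neural progenitor genes 8 were higher and 0 lower. Fabp7, the fatty acid-binding protein of radial glia, read 13.46, 13.54 and 13.47 in the secondary tumors, against 6.76 in ES cells, while normal kidney read 10.55 to 10.80. Sox9 and Nes, factor and filament of progenitor cells, were higher by 2.87 and 2.35, and Prom1 by 2.96. Of 14 astrocyte and glial genes 6 were higher and 0 lower, and 10 rose against primary tumors. Gfap, the filament of astrocytes, read 11.17, 11.35 and 10.85, against 6.52 in ES cells, 6.19 to 6.40 in primary tumors and 6.37 to 6.60 in normal kidney. Ptprz1, a phosphatase of glial progenitors, read 10.57, 11.02 and 11.10, against 6.42 in ES cells, and the glutamate transporter gene Slc1a3 11.10, 11.40 and 11.45, against 8.58. Aqp4, the water channel of astrocyte endfeet, differed by 3.61, but it is also a collecting duct gene and read 9.05 to 10.22 in normal kidney.

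Epithelial genes were also higher. Of 16 keratinocyte and stratified epithelium genes 11 were higher than in ES cells and 1 lower, and 15 rose against primary tumors (11 against primary tumor 1 alone). Krt5, the basal cell keratin, read 10.75, 11.41 and 10.77 in the secondary tumors, against 6.72 in ES cells. Krt4 and Krt13, the pair of the esophageal and oral lining, read 10.60, 11.57 and 10.51 against 6.30, and 9.54, 10.78 and 9.99 against 6.74. Krt15 differed by 3.70. Secondary tumor 2 was the highest of the 3 in 14 of the 16 genes. Sfn, a 14-3-3 protein, was the 1 lower gene, with 9.21, 9.66 and 9.02 against 11.18 in ES cells.

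Of 16 airway and mucosal secretory genes 9 were higher and 0 lower, and 11 rose and 1 fell against primary tumors (9 and 2 against primary tumor 1 alone). Cyp2f2, a P450 of airway club cells, read 12.43, 12.73 and 12.35 in the secondary tumors, against 6.79 in ES cells and 6.63 to 6.94 in primary tumors. Reg3g, a secreted antibacterial lectin, read 10.50, 10.98 and 10.13, against 5.21 in ES cells. Bpifa1, a secreted airway protein, read 10.14, 10.36 and 10.99, against 5.98. The club cell marker Scgb1a1, also on the list and named after its values were seen, differed from ES cells by 0.05. Of 14 genes of simple epithelium 1 was higher (Krt19, 1.22) and 3 were lower, Epcam, Cldn4 and Elf3, by -1.84, -1.79 and -1.74. These shares were 7.14% and 21.4%, against 9.57% and 6.76% of all genes.

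Motile cilia genes were higher together. Of 16, 11 were higher than in ES cells and 0 lower (8 after centring or quantile normalization), and 15 rose against primary tumors (15 against primary tumor 1 alone). Rsph4a, a radial spoke protein, read 10.02, 10.17 and 10.09 in the secondary tumors, against 6.16 in ES cells, at most 6.56 in primary tumors and 6.14 to 6.28 in normal kidney. Dnali1, a light intermediate chain of axonemal dynein, read 9.88, 10.16 and 10.03, against 6.77 in ES cells. Tekt4, a filament protein of the axoneme, read 8.98, 9.01 and 9.03, against 6.56, and Tppp3, a tubulin-binding protein, 12.41, 12.47 and 12.44, against 9.52. The 3 transplants lay within 0.3 log2 units of each other in all 4 genes.

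RFX factors switch on ciliary genes through a site called the X-box, and the half-site GTTGCC was therefore searched on both strands of the same promoter windows. It was found in 5 of 12 motile cilia genes with a window (41.7%: Tekt1, Tekt4, Spag6, Mcidas and Fam183b), and in 12.7% of 27025 promoters. It was also found in 5 of 14 muscle genes and 4 of 8 antigen presentation genes, so its share was not highest in the cilia list. Tekt1 and Fam183b, each with 2 matches, are shown with the matches on either strand in capitals and were picked for them. Tekt1 (chr11:72361833-72362132, minus strand) read 8.14, 7.83 and 7.73 in the secondary tumors, against 6.60 in ES cells. Fam183b (chr11:58801911-58802210, minus strand) read 10.20, 10.32 and 10.10, against 8.01. Spag6, which also holds a match, read 6.38, 6.52 and 6.52, against 6.84 in ES cells, and was not higher.
Tekt1: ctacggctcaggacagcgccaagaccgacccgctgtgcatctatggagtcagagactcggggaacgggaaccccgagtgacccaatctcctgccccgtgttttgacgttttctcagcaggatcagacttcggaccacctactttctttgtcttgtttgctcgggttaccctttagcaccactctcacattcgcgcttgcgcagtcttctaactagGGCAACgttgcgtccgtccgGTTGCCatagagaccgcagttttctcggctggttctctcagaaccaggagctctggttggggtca
Fam183b: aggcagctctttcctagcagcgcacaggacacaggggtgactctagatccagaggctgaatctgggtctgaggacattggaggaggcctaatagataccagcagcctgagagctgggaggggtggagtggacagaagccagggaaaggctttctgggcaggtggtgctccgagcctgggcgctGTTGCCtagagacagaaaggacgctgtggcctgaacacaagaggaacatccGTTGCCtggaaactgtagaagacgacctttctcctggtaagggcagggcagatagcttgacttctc

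Genes of supporting tissue and immune cells completed the higher lists. Of 19 fibroblast and matrix genes 10 were higher than in ES cells and 0 lower, in spite of the signal of such genes on the ES cell array, and 15 rose against primary tumors. Dcn, the collagen-binding proteoglycan decorin, read 13.17, 13.10 and 12.95 in the secondary tumors, against 10.45 in ES cells. Lum, lumican of the same family, read 10.87, 10.89 and 10.48, against 8.29. Of 15 endothelial genes 3 were higher (Cdh5, Emcn and Kdr) and 1 lower, Pecam1, with 8.44, 8.66 and 8.45 against 9.72 in ES cells, where that adhesion protein is also made. These shares were 20.0% and 6.67%, against 9.57% and 6.76% of all genes.

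Of 18 myeloid genes 12 were higher and 0 lower, with a median of 2.60. Against primary tumors only 3 of the 18 rose, 1 fell and 14 did not pass, with a median of 0.34. The complement gene C1qb, made by macrophages, read 12.14, 11.75 and 11.32 in the secondary tumors, against 6.89 in ES cells. Wfdc17, a small secreted protein of activated macrophages, read 13.32, 12.84 and 11.82, against 5.71. Of 13 antigen presentation genes 4 were higher, all of the class II pathway. H2-Aa read 10.31, 11.45 and 10.52, against 5.75 in ES cells, and Cd74 differed by 4.98. None of these 4 passed the test against primary tumors or normal kidney (H2-Aa -0.64 ± 0.32, adjusted p = 0.141, and 0.23 ± 0.32, adjusted p = 0.541, limma). Of 12 lymphocyte genes 0 were higher and 1 was lower (8.33%, against 6.76% of all genes). That gene, Cd79a, read 5.10 to 5.30 in the secondary tumors, against 6.41 in ES cells.

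**Figure D4:**
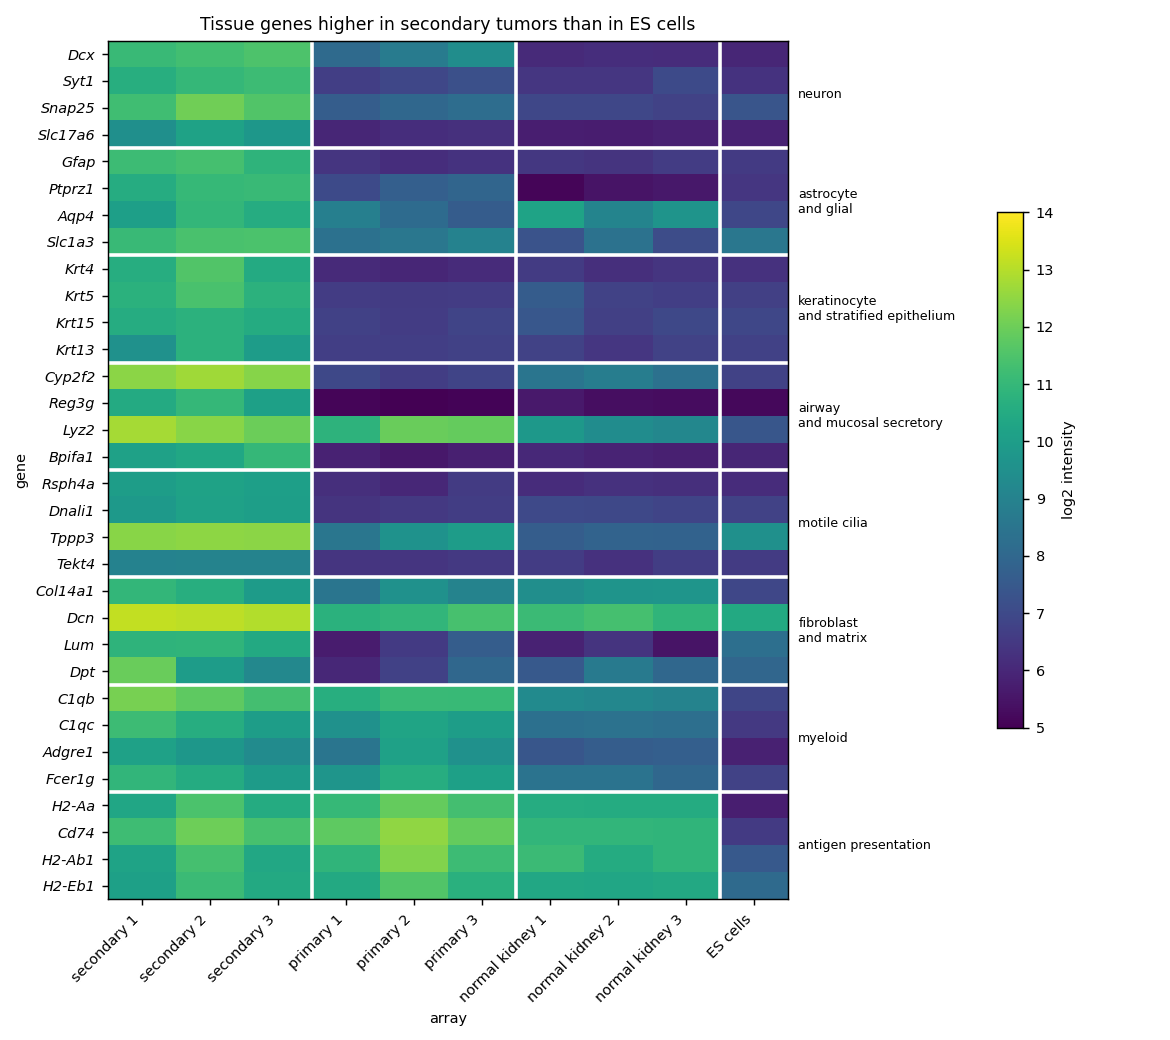
Log2 intensity (colour) of the 4 genes with the largest difference from ES cells among the higher members of 8 tissue and immune lists, in 3 secondary tumors, 3 primary tumors, 3 normal kidneys and 1 ES cell culture. Neuron, keratinocyte and cilia genes are brightest in the secondary tumors, while myeloid and class II genes are also bright in primary tumors.

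The lists of kidney tubule genes were not among what the transplants held. The summed intensity of 19 proximal tubule genes was 2103 to 3637 in the secondary tumors, against 2498 in ES cells and 166448 to 170067 in normal kidney. All 19 fell against normal kidney, and 16 of 16 distal nephron and collecting duct genes fell as well. Over all genes limma called 38.7% lower than normal kidney. In the primary tumors the proximal tubule sum was 37320 to 81249. "Kidney" in the name of the secondary tumors thus gives their origin, and the summed tubule signal of the 3 lay on either side of that of ES cells. Of the 19 proximal tubule genes 1 was higher than in ES cells and 1 lower (5.26% each, against 9.57% and 6.76% of all genes). Lrp2, the endocytic receptor megalin, also made in neural tissue, was the higher one, with 8.92, 8.78 and 8.93 against 7.50 in ES cells, but read 13.05 to 13.14 in normal kidney. Mep1b, a subunit of the brush border protease meprin, was the lower one, with 5.79, 6.03 and 5.93 against 7.20 in ES cells. Of the 16 distal genes 1 was higher (6.25%), Calb1, a calcium-binding protein of distal tubule and neurons. Calb1 read 7.55, 7.96 and 7.88 against 5.49 in ES cells and 12.50 to 12.60 in normal kidney. Of 16 nephron progenitor and podocyte genes 4 were higher (Ret, Eya1, Lhx1 and Foxd1), with differences between 1.42 and 2.03. Ret, the receptor of GDNF in ureteric bud and neurons, read 9.24, 9.69 and 9.18, against 7.34 in ES cells.

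Other organ lists gave fewer calls. Of 14 hepatocyte and visceral endoderm genes 5 were higher and 1 lower, with Apoa1 at 9.71, 9.29 and 9.23 against 7.22 in ES cells, and 10 of the 14 fell against primary tumors. Of 17 Wnt pathway genes 5 were higher and 0 lower, with Nkd1, a negative feedback target, at 10.65, 10.63 and 10.66 against 8.39. Of 14 cartilage and bone genes 3 were higher and 2 lower, and of 16 gut epithelium genes 1 was higher, the Wnt-dependent stem cell receptor Lgr5 with 9.19, 8.92 and 8.76 against 6.73. Smooth muscle genes numbered 2 higher (Kcnma1 and Mylk) and 1 lower (Tagln) of 12, and erythroid genes 1 higher (Lmo2) and 0 lower of 11. Over all genes 9.57% were higher and 6.76% lower. The higher shares of the hepatocyte, Wnt, cartilage and smooth muscle lists were 35.7%, 29.4%, 21.4% and 16.7%. Those of the gut and erythroid lists, 6.25% and 9.09%, were not above the share of all genes.

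Muscle genes were not higher as a list but divided the transplants. Of 15 skeletal and heart muscle genes 0 were higher and 0 lower than in ES cells, and 14 read highest in secondary tumor 1. Their summed intensity was 22650 in secondary tumor 1 and 2851 and 3136 in secondary tumors 2 and 3, against 3327 in ES cells. Acta1, skeletal muscle actin, read 12.65, 8.24 and 8.41 in the secondary tumors, against 9.46 in ES cells (named, with Ckm and Ttn, after their values were seen). Ckm, muscle creatine kinase, read 11.27, 6.97 and 6.88, against 7.24, and Ttn, titin, 10.36, 6.31 and 6.43, against 6.52. Adipocyte genes had the same division, with sums of 20334, 2561 and 2332 in secondary tumors 1, 2 and 3, against 1207 in ES cells and 9291 to 27171 in normal kidney. Of 9 adipocyte genes 2 were higher, Car3 (13.29, 10.13 and 9.88, against 6.86 in ES cells) and Lpl.

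Secondary tumor 1 also read highest in 15 of 19 fibroblast and 16 of 18 myeloid genes, against 32.0% of all genes. Without that array, 10 fibroblast, 12 myeloid, 11 keratinocyte and 11 cilia genes were higher than in ES cells, as with it, and 17 neuron genes instead of 15. Dpt, a dermal matrix protein, read 11.96, 9.98 and 9.21 in the 3 transplants, against 7.98 in ES cells. The part of the subcutaneous tissue and muscle of the host in these values was not tested.

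**Figure D5:**
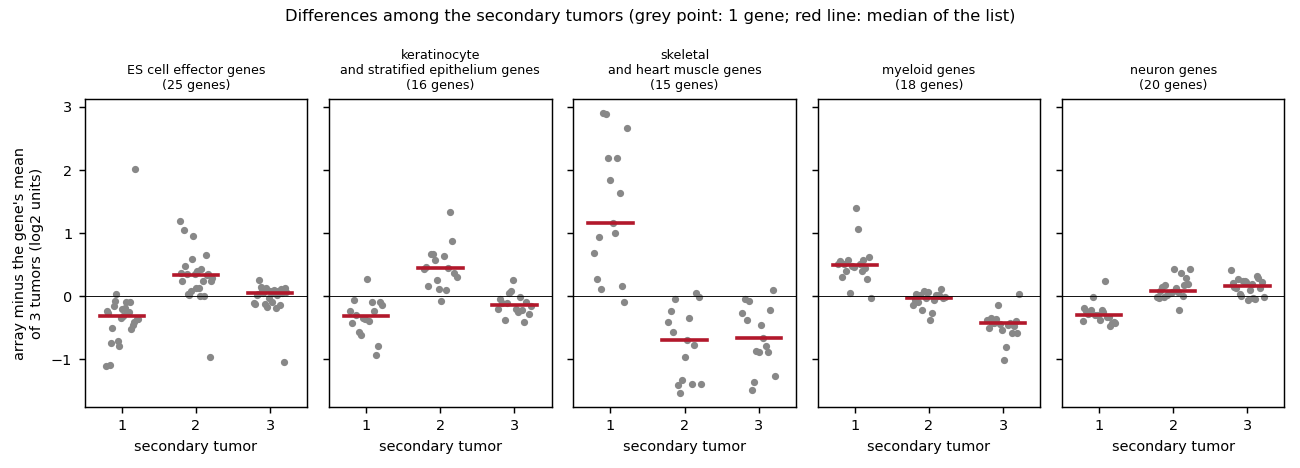
Each gene's array value minus its mean over the 3 secondary tumors (log2 units) for 5 lists, with 1 grey point per gene and a red line at the list's median. Muscle and myeloid genes are highest in tumor 1, and effector and keratinocyte genes in tumor 2.

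The differences of more than 3 log2 units in every array give the extremes. There were 165 such higher genes (0.828% of all genes) and 45 lower ones (0.226%). Of the 165 higher genes, 79 were also at least 1 log2 unit above ES cells in each primary tumor, 52 in each normal kidney, and 49 in no primary tumor and no normal kidney array. Those 49 included the neural genes Syt1, Snap25, Slc17a6 and Gfap, the keratins Krt4, Krt5 and Krt15, the mucosal genes Reg3g and Bpifa1, and the ciliary genes Rsph4a and Dnali1. Of the 45 lower genes, 35 were ES-restricted, as were 0.547% of all genes. In each primary tumor 33 of the 45 were also at least 3 log2 units below ES cells. All these sets rest on the same ES cell array, so part of the overlap follows from that choice.

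The 12 higher genes of largest mean difference were Wfdc17, Kcnma1, Fabp7, Gpm6a, Cyp2f2, Reg3g, Dcx, Chl1, Cym, Spon1, H2-Aa and Ly86. All 12 read low in ES cells, at 7.14 or less, where signal could not be told from background, so the sizes and the order of these differences are not exact. Kcnma1, a large-conductance potassium channel of neurons and smooth muscle, read 13.41, 13.56 and 13.37 in the secondary tumors, against 6.62 in ES cells, 9.33 to 9.70 in primary tumors and 6.60 to 6.96 in normal kidney. It rose against primary tumors by 3.93 ± 0.21 (adjusted p = 2.02e-08, limma). These values rest on its brightest probe set: its difference from ES cells was 6.83, and 4.58 with the mean of its probe sets, which is less than that of any of the other 11 genes. Cym, chymosin, a digestive protease, read 10.60, 12.93 and 13.44, against 7.14 in ES cells, and spread over more than 2 log2 units among the tumors. Gpm6a, a neuronal membrane glycoprotein, read 11.83, 12.14 and 12.23, against 6.16 in ES cells, but 11.55 to 11.92 in normal kidney. Spon1, a matrix protein of the floor plate, read 11.84, 11.97 and 12.04, against 6.93.

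Among the 12 lower genes of largest difference, Nr0b1, Dnmt3l, Dppa5a, Fbxo15, Tdgf1, Pla2g1b and Esrrb belong to the pluripotency lists, and Phlda2, Epp13, AU015836, Tdrd12 and Nup62cl do not. Tdrd12, a Tudor protein of the piRNA pathway in germ cells, read 6.07, 6.89 and 6.39, against 10.74 in ES cells. AU015836 read 5.99, 5.84 and 6.13, against 10.31, and Nup62cl, related to a nucleoporin, 7.36, 7.26 and 7.35, against 11.60.

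MicroRNA genes were examined after the protein-coding lists, with the named ones chosen after their values were seen. Of 287 measured, 8 were higher than in ES cells (2.79%) and 2 lower (0.697%), both below the shares of all genes. The probe sets read the precursor or its host transcript and not the mature RNA. Mature sequences of 8 of these 10 genes (RefSeq, GRCm38.p6) are given with the seed, bases 2 to 8, in capitals, the first 6 from higher and the last 2 from lower genes. No 2 of the 8 share a seed.
miR-181b-5p: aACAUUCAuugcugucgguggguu
miR-99a-5p: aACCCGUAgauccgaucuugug
miR-218-5p: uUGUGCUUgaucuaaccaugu
miR-377-3p: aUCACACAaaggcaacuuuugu
miR-300-3p: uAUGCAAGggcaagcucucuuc
miR-380-3p: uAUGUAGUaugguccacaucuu
miR-363-3p: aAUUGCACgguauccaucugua
miR-19b-3p: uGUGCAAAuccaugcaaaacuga

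Mir181b-1 (mature form on chr1:137966650-137966673, plus strand) read 7.67, 7.28 and 7.67 in the secondary tumors, against 5.42 in ES cells, 5.18 to 5.66 in primary tumors and 5.53 to 5.70 in normal kidney. Mir181b-2, a second copy, read 7.46, 6.91 and 7.32, against 5.80. Mir99a (chr16:77598940-77598961, plus strand) read 7.95, 7.77 and 8.30, against 5.87 in ES cells, and Mir218-1 8.11, 7.63 and 7.86, against 6.14. In each of these 4 genes the 3 transplants lay above all primary tumor and ES cell values. Mir181b-1 rose against primary tumors by 2.14 ± 0.13 (adjusted p = 7.65e-08, limma) and Mir99a by 2.02 ± 0.13 (adjusted p = 6.60e-08, limma).

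Mir377, Mir300 and Mir380, all 3 in the imprinted Dlk1-Dio3 region, were higher by 1.55, 1.31 and 1.11, alongside Dlk1 itself. Mir568 was higher by 3.11, and read 9.85 to 10.21 in normal kidney. The lower genes were Mir363 (5.01, 5.17 and 5.17 against 6.63 in ES cells) and Mir19b-1 (5.71, 5.59 and 5.67 against 6.73), both members of miR-17 family type clusters that are active in dividing stem cells.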

How the data were processed

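Per the labels' protocols, total RNA came from the RNeasy Plus Mini kit and was biotin-labeled for 1-channel Affymetrix arrays. The authors deposited an intensity on a linear scale for each probe set, from 20.7 to 20262 with array medians of 191 to 225.7. How they summarised and normalized the probes is not given in the sources used here. The submitters' processing notes name mm9. No detection p came with the values, so low levels could not be told from background, and the number of arrays limits the precision.

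Log2 was taken without further scaling. Of 28856 probe sets, 21789 had 1 symbol in the platform annotation of 2016, 1621 several and 5446 none. Where a gene had several probe sets (999 genes), the one of highest mean over 16 arrays was kept, leaving 19938 genes, none removed for low values. limma 3.58.1 (R 4.3.3) compared secondary tumors with primary tumors and with normal kidney, with 1 coefficient per group over all 16 arrays (10 residual and 2.66 prior degrees of freedom), 2-sided, with Benjamini-Hochberg adjustment over the whole table and calls at an adjusted p under 0.05. The step was tested on simulated data. Replicate numbers were checked as pairs. Each secondary array correlated best with the primary array of its own number, but weakly (0.037, 0.083 and 0.139). Secondary tumor 1 correlated more strongly, by 0.219, with normal kidney 2. The labels give no pairing, and the main fit used none.

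The members, the 34 lists (590 entries, 550 measured) and the rules were chosen with earlier results of these data known. Named genes were the 12 of largest difference each way, all members of the core, effector and oncofetal lists, up to 4 called members each way of other lists, 10 kept and 10 lost ES-restricted genes, and genes at the ends of a range, leaving out gene models, receptor families and small RNAs. Others were named after their values were seen, as marked in the text, or for a promoter match, an array check (Xist) or a threshold. Primary liver tumors entered only the fit.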

Additional observations from a re-analysis of the deposited data

How the results depend on the processing

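Of the 182 named genes, those higher or lower than ES cells kept the sign of their difference in every alternative run (1241 values over all 182), and 110 of these values moved by over 1 SD of the secondary tumors. With 0.5 log2 units in the call, 3402 genes were higher and 3663 lower than ES cells, and with 2 log2 units 600 and 187. Centring each array on its median left the share of higher calls at 43.0% against ES cells, 36.9% against primary tumors (51.5% in the report) and 30.6% against normal kidney (43.6%), with 5500 genes lower than primary tumors. Without the dimmest genes (33.3% of all, by mean level), 16 ES-restricted genes were lost, 16 rose against primary tumors and 4808 genes were lower than normal kidney, with fewer genes tested. ES-restricted genes taken at 2 log2 units gave 94 kept, 109 lost, 87 that rose and 82 that fell against primary tumors, and at 4 log2 units 3, 5, 11 and 8. Taken against normal liver only, 22 were kept and 60 lost, and with 0.5 log2 units as the distance 14 were lost. The replicate block, on the 2 groups alone, left 19 ES-restricted genes higher and 24 lower than primary tumors, and the 2 groups alone without the block 23 and 24. Same-numbered secondary and primary arrays correlated by 0.037, 0.083 and 0.139 in their deviations, each secondary array best with the primary array of its own number. With same-numbered normal kidney the values were -0.103, -0.163 and 0.15. Secondary tumor 1 and normal kidney 2, of unlike number, correlated by 0.219. Values of this size therefore cannot show a pairing, and the design gives none. Without both primary arrays with Xist signal, which leaves 1 primary array, 21 rose and 13 fell. Leaving out 1 replicate at a time gave 1962 to 2112 genes higher and 1410 to 1493 lower than ES cells, 14 to 16 kept and 34 to 41 lost genes, 3197 to 3477 higher and 2536 to 3256 lower than primary tumors, 25 to 33 ES-restricted genes that rose and 15 (without primary tumor 3) to 24 that fell, and 5514 to 5679 higher and 6737 to 7338 lower than normal kidney. The cause of these shifts was not tested.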
